A study of Bos taurus with 46 samples.

Results

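*CACNA1B* encodes the pore-forming alpha subunit of the N-type voltage-gated calcium channel (Cav2.2). Its reads were followed in blood leukocytes of 23 pregnant heifers, each sampled on D55 and on D105 of gestation. It is 1 gene of the 30675 in the NCBI count table. The gene was chosen by its level: it was the gene called between IVP-Normal heifers with 2 fetuses and those with 1 fetus, on both days. That contrast is therefore given as a description without a test, and the spread of *CACNA1B* between heifers is likewise a description.

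N-type channels open when the membrane depolarizes and let calcium into the cell. In neurons they sit at presynaptic terminals, where calcium entry triggers the fusion of transmitter vesicles, and they are held back by G protein-coupled receptors such as opioid receptors. Auxiliary beta and alpha2delta subunits carry the pore subunit to the membrane. Leukocytes are not electrically excitable in this way and take up calcium mainly through store-operated channels built from ORAI and STIM proteins.

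All 23 dams were Angus crossbred heifers and gave blood from the tail vein, from which leukocytes were prepared as the buffy coat after red cell lysis. The control group (AI, n = 8) conceived by artificial insemination. Heifers of the other groups received 2 embryos each that had been produced in vitro from slaughterhouse oocytes and semen of a Brahman bull. They were called IVP-LOS (n = 9) where a fetus collected on D105 reached the weight limit that the study set from the control fetuses for large offspring syndrome, and IVP-Normal (n = 6) where the fetuses stayed below it, so D55 libraries carry a label that was assigned later. The heifers were also chosen for sequencing by fetal sex and fetus number. All AI heifers carried 1 fetus. IVP-Normal heifers 628 and 688 and IVP-LOS heifers 557 and 604 carried 2 fetuses, as listed in the study's sample sheet. The sheet has no entry for the heifer labelled 669, which was matched to its only unpaired entry. Blood of non-pregnant heifers was not analysed here.

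Each heifer gave 1 library per day (46 libraries), with 18692653 to 24502012 reads counted on genes. Values are CPM, that is counts scaled to a common library total with TMM factors. Most leukocyte marker genes were abundant in every library: *PTPRC* (CD45), for example, ranged from 1799.6 to 2426.5 CPM. The monocyte gene *CD14* varied more, from 10.8 to 314.7 CPM. By the labels, AI and IVP-LOS libraries of D105 form a set named BACKUP, and every other library is in a set named New. The share of reads on no gene was 38.6% in the D105 library of 604 and 36.7% in that of 664. It was 23.6% to 31.1% in the other libraries, the D55 libraries of 604 (26.2%) and 664 (24.3%) among them. Unpaired fits of IVP-LOS between groups and between days are also given without both heifers. The paired fits, permutation tests and correlations were not run without them. By the paper, these heifers carried the largest fetuses with large offspring syndrome, so leaving them out also removes the most overgrown fetuses. Over heifers, *CACNA1B* had a Pearson's r of -0.06 with the share of reads on no gene and of 0.03 with the reads per library (n = 23).

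*CACNA1B* differed by up to 111.2-fold between heifers, and most heifers were within 2-fold of their own level on the other day. Across the 46 libraries it ranged from 0.488 CPM (11 reads) in IVP-LOS heifer 512 on D105 to 97.3 CPM (1827 reads) in IVP-LOS heifer 664 on D105. The mean of both days was 89.1 CPM in 664 and 0.801 CPM in AI heifer 517, the highest and the lowest of the heifers. In the bulk RNA used here, more cells of a type that carries the transcript and more transcript per cell cannot be told apart.

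The levels were split by a gap. Heifers 664, 688, 648, 628, 590 and 557 had 27.0 to 87.6 CPM on D55 and 30.2 to 97.3 CPM on D105. The other 17 heifers had 0.939 to 9.09 CPM on D55 and 0.488 to 5.04 CPM on D105. In the order of heifer means, the step from 557 (31.1 CPM) down to 606 (7.06 CPM) was 4.41-fold, and the next widest step was 1.64-fold. Of the 22 pairs of neighbours in this order, 18 overlapped in their values of both days. Each group contributed 2 of the 6 highest heifers.

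In the AI group the high heifers were 648 and 590, both with 1 fetus. Heifer 648 had 82.5 CPM on D55 (95% Poisson interval 78.9 to 86.3) and 60.6 CPM on D105 (57.4 to 63.9). Heifer 590 had 38.6 CPM on D55 and 30.2 CPM on D105. Both stood well above the third of the group, 606, with 9.09 and 5.04 CPM. Over the 8 AI heifers the lowest, median and highest values were 0.939, 4.25 and 82.5 CPM on D55 and 0.530, 1.79 and 60.6 CPM on D105. These intervals cover counting error only.

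In the IVP-Normal group the high heifers were the ones with 2 fetuses. Heifer 688 had 87.6 CPM on D55 and 80.3 CPM on D105. Heifer 628 had 54.7 CPM on D55 and 39.5 CPM on D105. The 4 heifers with 1 fetus had 1.38 to 2.61 CPM on D55 and 1.12 to 1.62 CPM on D105, so the sets did not overlap on either day. Over the 6 heifers the medians were 2.59 CPM on D55 and 1.56 CPM on D105.

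In the IVP-LOS group the highest heifer was 664, which carried 1 fetus and had 80.9 CPM on D55 and 97.3 CPM on D105. Next was 557, with 2 fetuses, at 27.0 CPM on D55 and 35.3 CPM on D105. The remaining 7 heifers, 604 with 2 fetuses among them, had 1.27 to 4.76 CPM on D55 and 0.488 to 4.53 CPM on D105. The group medians were 2.999 CPM on D55 and 3.46 CPM on D105.

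**Figure D1:**
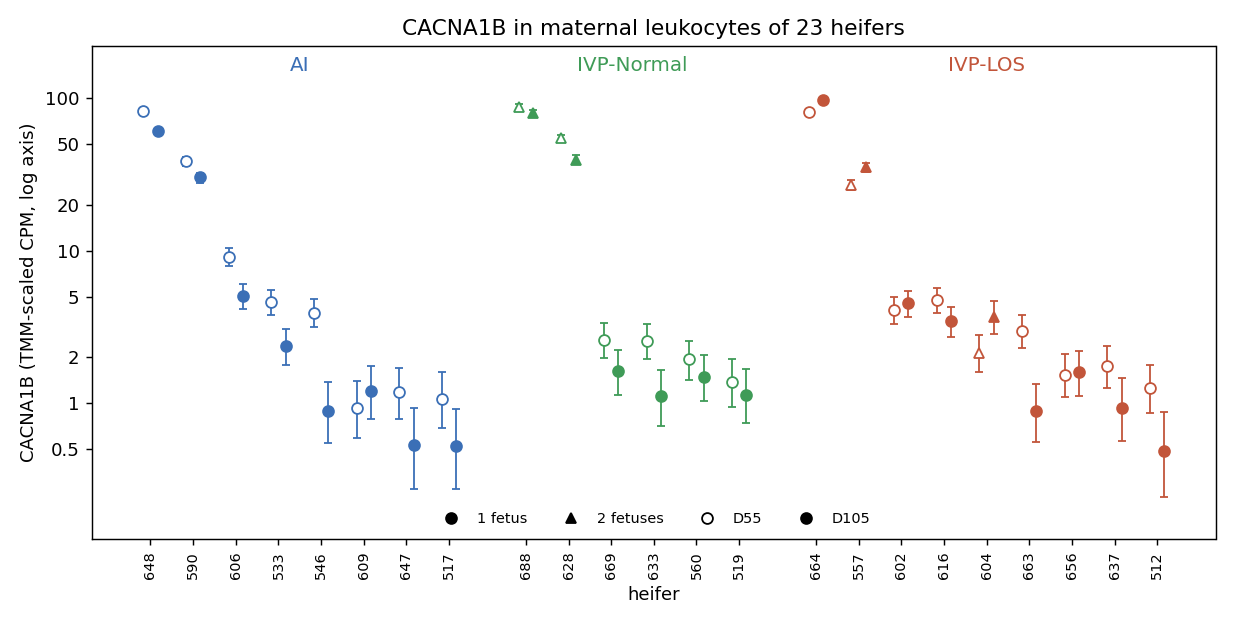
TMM-scaled CPM of *CACNA1B* on a log axis for each of the 23 heifers, ordered within its group by the mean of both days. Open symbols are D55 and filled symbols D105, circles 1 fetus and triangles 2 fetuses, and bars are 95% Poisson intervals of the reads. Each group has 2 heifers at 27.0 CPM or higher on both days, and all other heifers are at 9.09 CPM or lower.

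The treatment groups overlapped over almost their whole range and did not separate in any comparison of means. Group means were 17.7 ± 29.0 CPM (SD, n = 8) in AI, 25.1 ± 37.1 CPM (SD, n = 6) in IVP-Normal and 14.0 ± 26.3 CPM (SD, n = 9) in IVP-LOS on D55. On D105 they were 12.7 ± 21.8, 20.9 ± 32.9 and 16.5 ± 32.3 CPM in the same order. Each SD exceeded its mean, so the order of the group means is not separated from the spread between heifers.

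On D55, edgeR's quasi-likelihood test gave a log2 fold change of 0.50 (SE 1.18, FDR 0.890) for IVP-Normal against AI. It was -0.33 (SE 1.02, FDR 0.949) for IVP-LOS against AI and -0.84 (SE 1.11, FDR 0.899) for IVP-LOS against IVP-Normal. On D105 the values were 0.72 (SE 1.24, FDR 0.834), 0.39 (SE 1.16, FDR 0.932) and -0.31 (SE 1.25, FDR 0.999). Exact permutation tests (two-sided, on log2 of CPM + 0.5) gave p = 0.699 to 0.864 over these 6 comparisons, and 0.864 for each after Benjamini-Hochberg adjustment over the 6. The standard errors are large, so a difference of several-fold in either direction could have gone undetected. Comparisons with IVP-Normal use the heifers by which the gene was chosen, so only IVP-LOS against AI is free of that choice.

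The background of these 6 comparisons was the same: the quasi-likelihood test called 0 genes (0%) in each, while 501 to 1518 genes had an unadjusted p under 0.05. edgeR's likelihood ratio test called 1 to 11 genes and DESeq2 called 2 to 42, and *CACNA1B* was not called by either. Without 604 and 664, IVP-LOS against AI became -1.51 (FDR 0.875) on D55 and -0.91 (FDR 0.9998) on D105, the latter with the opposite sign to the value with all heifers. IVP-LOS against IVP-Normal became -2.01 (FDR 0.701) on D55 and -1.62 (FDR 0.703) on D105. On D105, IVP-Normal libraries are of one set and AI and IVP-LOS libraries of the other, so set and group cannot be told apart in the comparisons of IVP-Normal on that day. The D55 comparisons, and AI against IVP-LOS on D105, lie within 1 set.

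The heifers with the highest levels were shared between the days, while the order below them changed: 546, for example, was number 11 on D55 and 19 on D105, and 609 was number 23 and 15. The 6 highest heifers were the same on both days, and within them 664, 688 and 648 were the 3 highest on each (at least 80.9 CPM on D55 and 60.6 CPM on D105), above 628, 590 and 557 (at most 54.7 and 39.5 CPM). In these 6, the ratio of D105 to D55 ranged from 0.723 in 628 to 1.31 in 557. In the other 17 it ranged from 0.229 in 546, where 91 reads on D55 stood against 20 on D105, to 1.73 in 604, with 52 against 65 reads. The days were within 2-fold of each other in 17 of 23 heifers, and in the other 6, all of them at the low levels, D105 was 0.229 to 0.494 of D55.

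On the log2 scale, the SD between heifers (mean of both days) was 2.14, against 0.39 for 1 day within a heifer. The intraclass correlation is the share of the variance that lies between heifers, here after the mean of each day was subtracted. It was 0.967 for *CACNA1B*, with a median of 0.353 over the 16487 genes that passed the filter on low counts. Both it and the SD within a heifer thus leave out the mean change between days. *CACNA1B* was number 54 of these genes by the intraclass correlation and number 13 by the SD between heifers (median SD 0.23). The gene was chosen by a difference between heifers that was called on both days. The heifers it was chosen by are included here, so a high place was partly fixed by that choice and these ranks only describe the gene. Its SD of the change between days (0.55) was number 1798 of these genes, above the median of 0.32. Leaving out each heifer in turn gave intraclass correlations of 0.961 to 0.975.

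**Figure D2:**
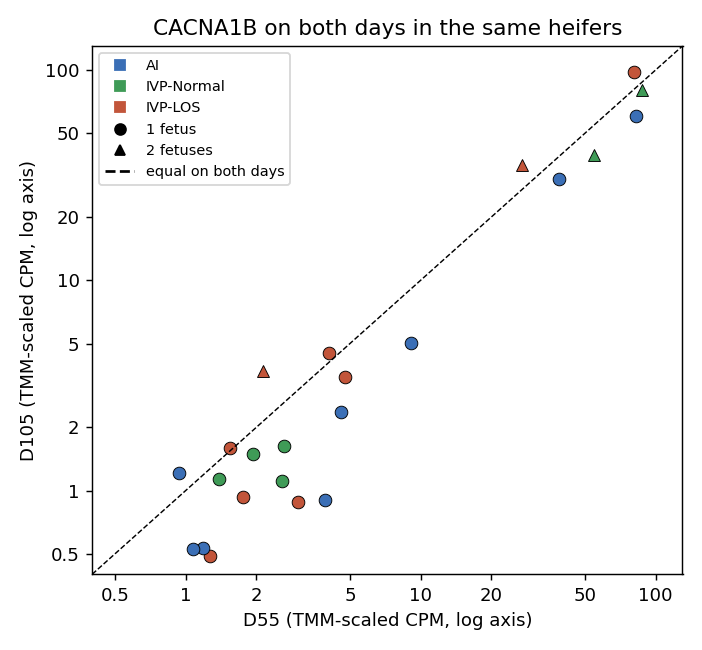
*CACNA1B* on D55 (x axis) and on D105 (y axis) in TMM-scaled CPM, both on log axes, with 1 point per heifer, coloured by group and shaped by fetus number. The dashed line marks equal levels. The 6 highest heifers lie near the line, with D105 to D55 ratios of 0.723 to 1.31, and most heifers with fewer reads lie below it.

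Within heifers, *CACNA1B* was lower on D105 than on D55 in 17 of 23 animals. The level was lower on D105 in 7 of 8 AI heifers, with a mean log2 change of -0.64 ± 0.54 (SD, n = 8) on the scale of log2 CPM + 0.5. It was lower in 6 of 6 IVP-Normal heifers, by -0.43 ± 0.29 (SD, n = 6). It was lower in 4 of 9 IVP-LOS heifers, with a mean change of -0.19 ± 0.65 (SD, n = 9).

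Two-sided exact sign-flip permutation tests over heifers gave p = 0.0156 in AI, p = 0.0313 in IVP-Normal and p = 0.402 in IVP-LOS (0.0469, 0.0469 and 0.402 after adjustment over the 3 groups). For IVP-Normal this is the smallest p that 6 heifers allow. The IVP-Normal libraries are also those by which the gene was chosen, and their p enters the adjustment. edgeR's quasi-likelihood test without pairing gave log2 fold changes of -0.47 (SE 1.11, FDR 0.856), -0.28 (SE 1.32, FDR 0.957) and 0.24 (SE 1.06, FDR 0.958). With the heifer as a block, which pairs the samples of each animal, they were -0.73 (SE 0.19, FDR 0.0210) in AI, -0.48 (SE 0.14, FDR 0.0729) in IVP-Normal and -0.16 (SE 0.23, FDR 0.720) in IVP-LOS. The blocked fit thus called the decrease in AI, did not call that in IVP-Normal, and turned the sign in IVP-LOS. Without 604 and 664, the unpaired value in IVP-LOS was 0.12 (FDR 0.987).

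Many genes moved between the days in AI heifers. The unpaired test called 9.9% of genes in AI, 2.47% in IVP-Normal and 0.257% in IVP-LOS, and the blocked test 16.9%, 5.29% and 1.09%. In AI and IVP-LOS heifers the days were also in different library sets and cannot be told apart from them, while the IVP-Normal libraries of both days are in 1 set. The change between days did not differ detectably between groups: IVP-LOS was 0.45 log2 units above AI, 0.23 above IVP-Normal, and IVP-Normal was 0.22 above AI (two-sided exact permutation p = 0.148, 0.434 and 0.411, and 0.434 for each after adjustment over the 3).

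The separation by fetus number for which *CACNA1B* was selected in IVP-Normal heifers did not recur in IVP-LOS heifers, where levels with 1 and with 2 fetuses overlapped on both days. In IVP-Normal, the log2 fold change of 2 fetuses against 1 was 5.08 (SE 0.29) on D55 and 5.47 (SE 0.32) on D105 (2 against 4 heifers). In IVP-LOS it was 0.08 (SE 1.64, FDR 0.995) on D55 and 0.33 (SE 1.85, FDR 0.953) on D105 by edgeR's quasi-likelihood test (2 against 7 heifers), which called 0 genes (0%) on each day. An unadjusted p under 0.05 was reached by 855 and 1549 genes, and the likelihood ratio test called 2 and 10 genes and DESeq2 16 and 44, *CACNA1B* not among them.

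The values behind this overlapped. The IVP-LOS heifers with 2 fetuses had 27.0 CPM (557) and 2.14 CPM (604) on D55, and 35.3 and 3.70 CPM on D105. The 7 with 1 fetus had a lowest, median and highest value of 1.27, 2.999 and 80.9 CPM on D55 and of 0.488, 1.59 and 97.3 CPM on D105. Heifer 557 was thus above 6 of the 7, and 604 lay inside their range on both days, below the median on D55 and above it on D105.

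The mean of log2 CPM + 0.5 was 0.84 higher with 2 fetuses on D55, 1.76 higher on D105 and 1.30 higher for the mean of both days. Two-sided exact permutation tests gave p = 0.778, 0.361 and 0.556 (0.778 for each after adjustment over the 3), where 36 arrangements allow 0.0278 at the least. Whether the effect of fetus number differs between IVP-LOS and IVP-Normal was not tested, since the gene was selected on the latter.

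Single heifers set the IVP-LOS value. Without 664 the log2 fold change was 2.42 (FDR 0.874) on D55 and 3.29 (FDR 0.132) on D105. Without 557 it was -2.69 (FDR 0.998) and -2.06 (FDR 0.774), and without 604 it was 0.97 (FDR 0.9999) and 1.16 (FDR 0.9997). DESeq2, which replaces counts it takes as outlying, gave 2.17 (adjusted p 0.288) on D55 and 2.83 (adjusted p 0.116) on D105, and without that step 0.08 and 0.30. The library of 604 on D105 is also the one with the highest share of reads on no gene.

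Fetus number did not order the levels over all heifers either. Of the 4 heifers with 2 fetuses, 3 were among the 6 highest: 628, 688 and 557. The gene was chosen by the high levels of 628 and 688, so their place there was fixed by that choice. Outside it, 557 was among the 6 highest and 604 was not. The remaining 3 of the 6 highest (648, 590 and 664) carried 1 fetus, as did 16 of the 17 lower heifers. On D55 the range was 2.14 to 87.6 CPM with 2 fetuses (n = 4) and 0.939 to 82.5 CPM with 1 fetus (n = 19). On D105 it was 3.70 to 80.3 CPM and 0.488 to 97.3 CPM.

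**Figure D3:**
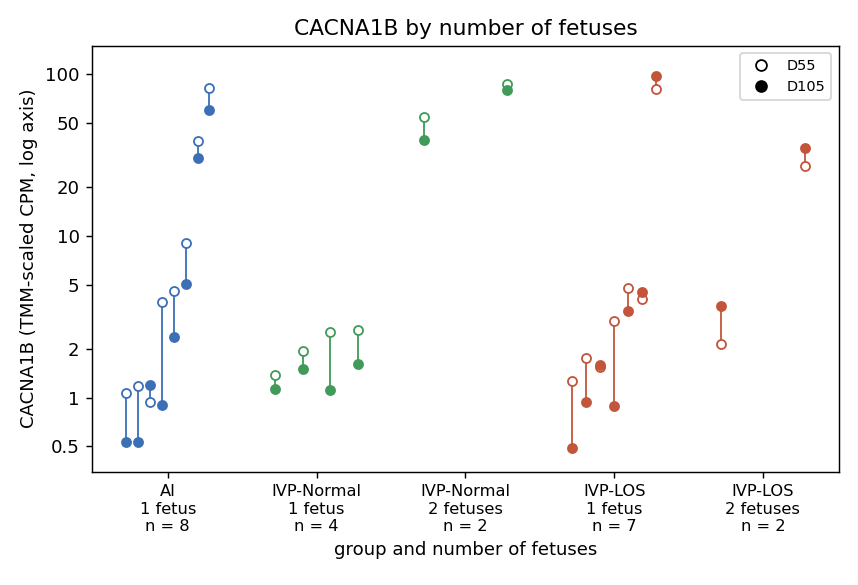
*CACNA1B* in TMM-scaled CPM on a log axis by group and number of fetuses, with an open (D55) and a filled (D105) point per heifer joined by a line. In IVP-Normal the 2 heifers with 2 fetuses lie above the 4 with 1 fetus, at 39.5 CPM or higher against 2.61 CPM or lower. In IVP-LOS and AI, heifers with 1 fetus reach 97.3 and 82.5 CPM.

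Reads of other pore subunits of voltage-gated calcium channels were also present. Each of the 9 listed genes had reads, and 7 passed the filter on low counts over the 6 combinations of group and day. *CACNA1A*, the pore of the P/Q-type channel that shares the presynaptic role, ranged from 4.92 to 26.8 CPM over the 46 libraries. *CACNA1S*, the pore of the skeletal muscle L-type channel, ranged from 5.70 to 34.6 CPM. *CACNA1E* (R-type) ranged from 1.07 to 8.55 CPM and *CACNA1H* (T-type) from 2.08 to 15.0 CPM. *CACNA1C* and *CACNA1D* (L-type) stayed at 4.27 CPM or lower and *CACNA1F* at 0.718 CPM or lower, and *CACNA1G* and *CACNA1I* did not pass the filter.

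Over the 23 heifers, Pearson's r with *CACNA1B* (log2 of CPM + 0.5, mean of both days) lay between -0.40 for *CACNA1E* and 0.44 for *CACNA1S* among the pore subunits. Of 16 auxiliary subunits, 15 were in the table and 8 passed the filter, with r from -0.44 for *CACNB4* to 0.49 for *CACNB1*. Of 15 presynaptic partners, 12 passed, and the most negative r was -0.63 for *UNC13A*, a vesicle priming factor. Of 14 G proteins, receptors and kinases that act on the channel, 12 passed, and the highest r was 0.64 for *GNB5*, a G protein beta subunit, followed by 0.55 for the nociceptin receptor *OPRL1*. All 24 genes of calcium entry and release in leukocytes passed, with r from -0.46 for the calcium pump *ATP2A2* to 0.63 for *ORAI3*. These correlations describe 23 points that share their libraries and a gap in *CACNA1B*, and carry no test.

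None of the genes of these lists was called between treatment groups, nor between fetus numbers in IVP-LOS heifers, where 57 to 62 of the 77 genes in the table were tested. The median log2 fold change of the pore subunits was -0.35 for IVP-Normal against AI on D55 and between -0.14 and 0.13 in the other group comparisons, where the median over all genes was 0.00 and between 0.00 and 0.03. Between days in AI heifers, 2 of 59 list genes were called without pairing, against 9.9% of all genes: the channel kinase *TRPM7* rose by 0.42 (SE 0.10, FDR 0.0138) and the vesicle protein *VAMP2* fell by 0.29 (SE 0.09, FDR 0.0398) on the log2 scale. With the heifer as a block, 4 of the 59 rose and 7 fell in AI, where 16.9% of all genes were called, so the share in the lists was near the background. Among pore subunits *CACNA1S* fell by 0.49 (FDR 0.0246) and *CACNA1E* rose by 0.43 (FDR 0.0306), and the beta subunit *CACNB1* fell by 0.40 (FDR 0.0365). *RYR1* (0.71, FDR 0.00515), *TRPM7* and *P2RX4* also rose, and *ORAI3*, *VAMP2*, *ATP2B1*, *ATP2B4* and *DPYSL2* also fell.

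The unpaired test called none of the list genes between days in IVP-Normal (56 tested) or IVP-LOS (57 tested). The blocked test called 3 of 56 in IVP-Normal, where 5.29% of all genes were called: the ATP-gated channel *P2RX1* rose by 0.95 (FDR 0.0209), and the mechanosensitive channel *PIEZO1* and *ORAI3* fell by 0.30 (FDR 0.0341) and 0.40 (FDR 0.0426). In IVP-LOS it called *P2RX1* alone of 57, higher by 1.15 (FDR 0.0497), where 1.09% of all genes were called. These shares, too, are near the background.

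Neurons are the cells best known for N-type channels, and 4 of 8 neuronal markers were at or near 0 in every library. These were *STMN2*, *ELAVL4*, *NEFL* and *GAP43*, with at most 0.0883 CPM in any library. The sum of the 8 ranged from 6.66 to 18.6 CPM, most of it *TUBB3* and *RBFOX3*. The sum ranged from 11.9 to 16.0 CPM in AI, 9.38 to 14.1 CPM in IVP-Normal and 9.16 to 18.2 CPM in IVP-LOS on D55, and from 7.21 to 9.16, 6.72 to 11.8 and 6.66 to 18.6 CPM on D105. Its r with *CACNA1B* over 23 heifers was -0.07. For neuroendocrine markers, whose sum was 3.26 to 8.66 CPM and mostly *SYP*, r was 0.40.

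The r was -0.02 for platelet markers (sum 123.6 to 2543.3 CPM), 0.00 for red cell precursor markers (2.06 to 71.5 CPM) and 0.48 for the leukocyte markers (4648 to 6091 CPM, 6 of the 7 in the table). Of 5 trophoblast names, *CSH2*, *PAG2*, *PAG11* and *PRP1* had no read in any library. The fifth, *PAG1*, had 350.1 to 680.4 CPM, and this symbol is also that of an adaptor protein of lymphocyte membranes. The part of any of these cells in the level of *CACNA1B* was not tested further.

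The genes whose level over heifers was most like that of *CACNA1B* were *KSR2*, *ENTPD8*, *NIPA2*, *PFN3* and *SMIM15_1*, among 16486 genes compared. Pearson's r was 0.75 for *KSR2*, a scaffold of the Ras and MAP kinase pathway that averaged 0.240 CPM. It was 0.75 for *ENTPD8*, an ectonucleotidase that averaged 3.87 CPM. For *NIPA2*, a magnesium transporter, it was 0.70, for *PFN3*, a profilin, 0.67 and for *SMIM15_1* 0.67. The most negative r was that of *SMIM15*, at -0.73. *SMIM15* and *SMIM15_1* are 2 rows of 1 gene name, and how the counting divided reads between them is uncertain.

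The likenesses were weaker among the 17 lower heifers. In them alone, r was 0.15 for *KSR2*, 0.32 for *ENTPD8*, 0.21 for *NIPA2*, 0.27 for *PFN3*, 0.26 for *SMIM15_1* and -0.26 for *SMIM15*. Among the 6 highest heifers r was 0.67 for *KSR2*, 0.50 for *NIPA2*, 0.37 for *PFN3*, 0.05 for *ENTPD8*, -0.25 for *SMIM15_1* and 0.25 for *SMIM15*. *ENTPD8* was the only one of the 5 that was also among the 5 most alike by rank correlation, on D55 alone and on D105 alone, with r of 0.72 on each day. Each day is part of the mean by which it was picked, so the days are no separate support. By r in the 17 lower heifers alone, *ENTPD8* was number 1349.

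*ENTPD8* is annotated on chromosome 11, as is *CACNA1B*, with 8 entries of the RefSeq gene table (assembly ARS-UCD2.0) between them. It had 10.5 and 10.3 CPM (D55 and D105) in 688, 4.56 and 5.65 CPM in 664, and 6.05 and 7.25 CPM in 557. Heifer 604 had 4.16 and 4.27 CPM, and heifer 512, with the lowest *CACNA1B* on D105, had 4.09 and 5.11 CPM. Heifer means of *ENTPD8* ranged from 1.02 to 10.4 CPM. In the 6 heifers above the gap in *CACNA1B* they were 5.10 CPM (664) or higher. In the other 17 they were 4.91 CPM (602) or lower, so the sets did not overlap, though they lay close. *ENTPD8* was picked by its likeness to *CACNA1B*, so this is a description. Among the 17, heifer 512 combined low *CACNA1B* with an *ENTPD8* level above the median of the heifers.

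The genes between them did not follow. *EHMT1*, a histone methyltransferase and the nearest entry on that side, had an r of 0.14 and stayed between 97.3 and 134.6 CPM. *ARRDC1*, the next, had an r of 0.36. The other 6 with reads had r from -0.44 (*PNPLA7*) to 0.28 (*DPH7*). On the other side, a long noncoding RNA entry lies within the span of *CACNA1B* in that assembly and has no row in the counts under its name, and the olfactory receptor pseudogene *OR5M9CP* had at most 0.326 CPM. The study's methods name the default union mode of HTSeq for the counting and no strand setting, so reads of an overlapping or antisense transcript cannot be told apart from those of *CACNA1B*. Of the 20 genes most like *CACNA1B*, 2 are on chromosome 11, which holds 4.85% of the 15138 compared genes that matched the table.

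**Figure D4:**
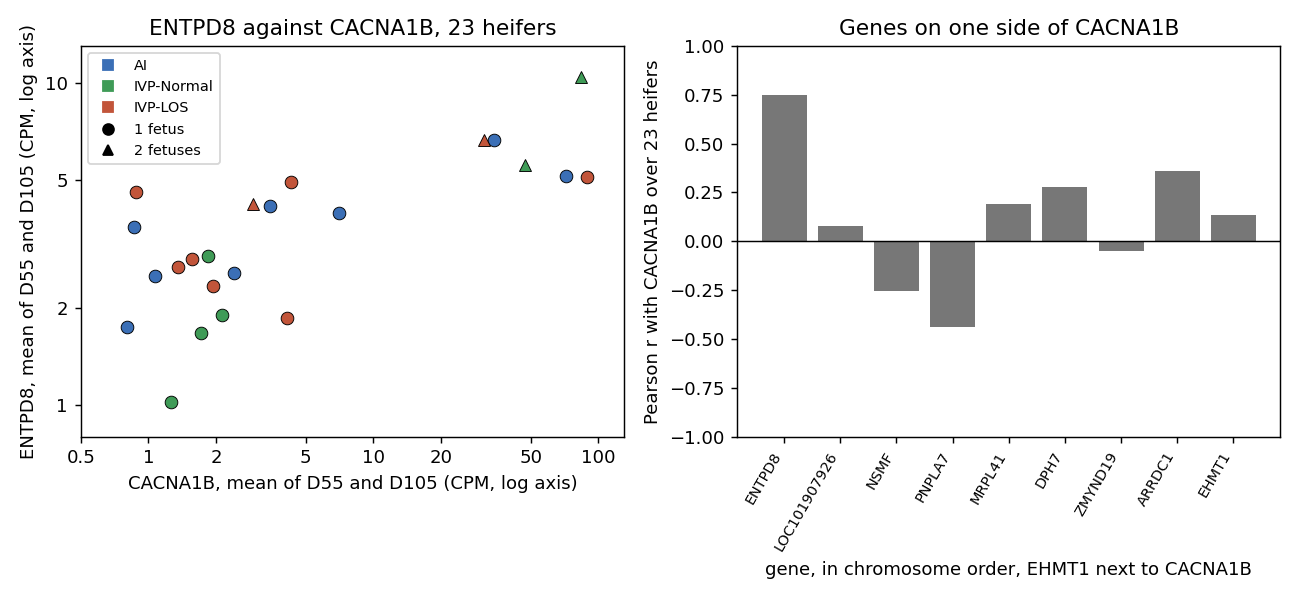
Left, *ENTPD8* against *CACNA1B* (mean of both days, TMM-scaled CPM, both log axes), 1 point per heifer, coloured by group and shaped by fetus number. Right, Pearson's r with *CACNA1B* over 23 heifers for genes on one side of it in chromosome order, where *ENTPD8* reaches 0.75 and the genes between lie from -0.44 to 0.36.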

How the data were processed

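The authors trimmed the paired-end reads, aligned them to the bovine genome ARS-UCD1.2 with HISAT2 2.1.0, and counted reads per NCBI RefSeq gene with HTSeq. Deposited were the raw counts, not normalized by the authors, from which the rows of unassigned reads were left out (23.6% to 38.6% of reads on no gene). A second count table on Ensembl genes was not used, as no identifier in it could be matched to *CACNA1B*.

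Counts were tested in R 4.3.3 with edgeR 4.0.16 (TMM, filterByExpr with a minimum count of 10, robust quasi-likelihood F-test) over all genes of the compared libraries, called at an FDR of at most 0.05. The SE given with these fits was calculated back from the test, as the absolute log2 fold change over the square root of F. DESeq2 1.42.0 was an alternative, and the fits were tested on simulated counts. Exact permutation tests used log2 of CPM + 0.5. The numbers of the heifers pair D55 with D105, since by the labels the animal is the same. For each heifer, deviations from the group means over genes correlated between days (r 0.30 to 0.81). In 10 of 23 heifers the D55 library correlated best with its own D105 library, among those of its group. In the others, the D105 library of another heifer of the group correlated best, so the pairing rests on the labels. With 18692653 to 24502012 reads per library, the lowest *CACNA1B* values rest on as few as 11 reads and carry wide counting intervals.

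The gene, the lists, the markers and the likeness rule (the 5 highest r and the most negative one) were chosen with earlier results of these data known. Named besides *CACNA1B* are list genes called in a comparison, detected pore subunits, neighbouring genes and genes at the ends of each list's r, of which 1 is not reported here. The latter, the genes between *CACNA1B* and *ENTPD8*, and single markers were named after their values were seen. The number of fetuses was read from the study's sample sheet. No replicate pair agreed within sampling noise.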

Additional observations from a re-analysis of the deposited data

Results flagged for a closer look

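Values of *CACNA1B* were examined for a heifer far from the others in levels per group and day, levels of heifers with 1 fetus, and changes between days. Of 13 sets, 5 had one. Chance gives about 1 in 20 where values follow a normal distribution. Levels were examined as CPM, where the SD of each treatment group exceeded its mean, so that rate cannot be taken to hold for them. Heifer 664 stood apart in IVP-LOS on D55 (80.9 CPM) and on D105 (97.3 CPM), and again among the IVP-LOS heifers with 1 fetus on each day (80.9 and 97.3 CPM). Heifer 648 stood apart in AI on D55 (82.5 CPM). The sets share these heifers, so the 5 are not independent of each other. The cause was not tested.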

How the results depend on the processing

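No alternative made *CACNA1B* pass the threshold between treatment groups or between fetus numbers in IVP-LOS heifers. With the heifer as a replicate block, the change between days passed in AI (-0.73 in place of -0.47 on the log2 scale) and turned in IVP-LOS (-0.16 in place of 0.24). The paired fit changed no other call of *CACNA1B*, and moved the list genes called between days from 2 to 11 in AI, from 0 to 3 in IVP-Normal and from 0 to 1 in IVP-LOS. IVP-LOS against AI on D105 turned from 0.39 to -0.91 without heifers 604 and 664, an alternative chosen after seeing the data, as was DESeq2 without its handling of outlying counts. For 2 fetuses against 1 in IVP-LOS, leaving out each heifer in turn gave -2.69 to 2.42 on D55 and -2.06 to 3.29 on D105, so a value near 0 rests on 557 and 664 together. In IVP-Normal, where the gene was chosen by this contrast, the same gave 4.70 to 5.37 on D55 and 4.85 to 5.90 on D105, as a description that supports nothing. In these fits an arm can be left with 1 heifer, which is then assumed to vary like the others. The intraclass correlation was 0.973 with a pseudocount of 1. Of the 5 genes most like *CACNA1B*, 1 remained by rank correlation, 1 on D55 alone and 3 on D105 alone. The Ensembl table was not run, since no identifier was matched to *CACNA1B*. Depth limits the low values: the lowest, 0.488 CPM from 11 reads, has a 95% Poisson interval of 0.244 to 0.874 CPM.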
